A study of Mus musculus with 12 samples.

Results

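The 9 genes described here encode the nuclear complex that turns a Wnt signal into transcription: Ctnnb1, which encodes β-catenin, the adaptor genes Bcl9 and Bcl9l, the PHD finger genes Pygo1 and Pygo2, and the TCF/LEF genes Tcf7, Tcf7l1, Tcf7l2 and Lef1. They were chosen by gene name from the 20409 genes that the deposited tables list and all 9 were found. In the canonical pathway, a Wnt ligand at the cell surface stops the degradation of β-catenin, which then enters the nucleus and binds TCF/LEF proteins, the members of the complex that contact DNA themselves. BCL9 proteins bridge β-catenin to Pygopus proteins, whose PHD finger binds methylated histone H3. TCF/LEF proteins that are not bound by β-catenin recruit corepressors, and TCF7L1 is known mainly as a repressor in embryonic stem cells.

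The genes were measured in ORFtag screens in mouse embryonic stem (mES) cells, where a retroviral cassette with a PGK promoter, a neomycin resistance gene, a tag and a splice donor inserts into the genome and splices the tag onto the next exon of a gene. For the activator screen the tag was TetR, which binds TetO sites placed next to a GFP reporter with a minimal promoter, and GFP-positive cells were sorted. The repressor screen used the same tag with a constitutively expressed GFP reporter, and GFP-negative cells were sorted. The PTGR screen looked for post-transcriptional gene regulators: its λN tag brought fusions to boxB sites in the reporter mRNA, GFP-low cells were sorted repeatedly, and the last sort took cells whose GFP was restored after Cre had removed the boxB sites. Each screen had sorted and unsorted cells with 2 libraries of each, which gave 12 libraries in 6 groups of mapped insertions, and unsorted cells were collected after G418 selection. All 6 groups came from diploid cells derived from the haploid line AN3-12, and the cassette was a mix of the reading frame variants. Per the methods, the activator and PTGR reporter lines were made with clonal selection, and the repressor line came from earlier work. Libraries were made from genomic DNA, so the cell type could not be checked from expressed markers.

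The measured quantity was the number of different insertion positions in the direction of a gene, called sense insertions, at most 200 kb from the exon to which the insertion was assigned. Depth, the sum of such insertions over all genes, was lowest at 14705 and highest at 60980 among sorted libraries, and 54088 to 233799 among unsorted ones. The background was the sum of the 6 unsorted libraries, 1022126 insertions. A gene with at least 3 sorted insertions was tested against this background by Fisher's exact test, one-sided, with p adjusted over all genes tested after Benjamini and Hochberg. A hit had an adjusted p below 0.001 together with a log2 odds ratio that reached 1. The odds ratio compares the odds that a sorted insertion lies at the gene with the same odds in the background. The 3 screens share this background in the Fisher test, so their values for a gene are set side by side and are not independent.

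Of the 9 genes, Pygo1 and Bcl9l stood out in the TetR screens, and in both sorted libraries each time. Pygo1 was a hit in the activator screen only, with 64 sorted insertions, and Bcl9l was a hit in both the activator screen, with 19, and the repressor screen, with 60. Pygo2 was also an activator hit, on 3 insertions from a single library. Ctnnb1, Bcl9 and the 4 TCF/LEF genes were hits in none of the 3 screens, and none of the 9 genes was a hit in the PTGR screen.

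Every fusion begins at a splice acceptor, so the acceptor that an insertion was assigned to sets how much of the protein would be joined to the tag. All 1608 sense insertions at the 9 genes were assigned to 35 exon starts of the annotation, and the genome had AG directly before each of them. The acceptors below are those that took most insertions of the 3 genes called and, for comparison, of Ctnnb1, which was called nowhere although insertions there were common. Each is printed in the direction of its gene from the RefSeq mm10 genome, with the end of the intron in lower case and the first 10 bases of the exon, those that would follow the tag, in capitals.
Pygo1 exon 2, chr9:72942900-72942929, plus strand: tgggatttacttttttgtagGTGGTGACAG
Pygo2 exon 2, chr3:89431107-89431136, plus strand: gcccattgctgctcttctagGTCTGCAAAT
Bcl9l nearer exon, chr9:44499428-44499457, plus strand: tttggggcttgttgctgcagTCCCTGCTCC
Bcl9l farther exon, chr9:44489635-44489664, plus strand: ctgtgaccatttctccacagGGAGCCCCCA
Ctnnb1 exon 2, chr9:120950153-120950182, plus strand: gacttgatggaatttttcagGGTACCTGAA

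Insertions without selection differed widely among the 9 genes. Over the background, Tcf7 had 405 sense insertions, Tcf7l1 308, Ctnnb1 200, Tcf7l2 173, Bcl9l 115, Lef1 30, Bcl9 19, Pygo1 18 and Pygo2 0, against a median of 15 over all genes listed. Tcf7 had more than 98.4% of genes, and Pygo1 more than 53.8%. The genes that became hits were therefore not those in which insertions were most frequent, and the depth for detecting a loss differed: at Pygo1 or Bcl9 fewer than 1 insertion was expected in the sorted activator cells, against 12.7 at Tcf7.

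**Figure D1:**
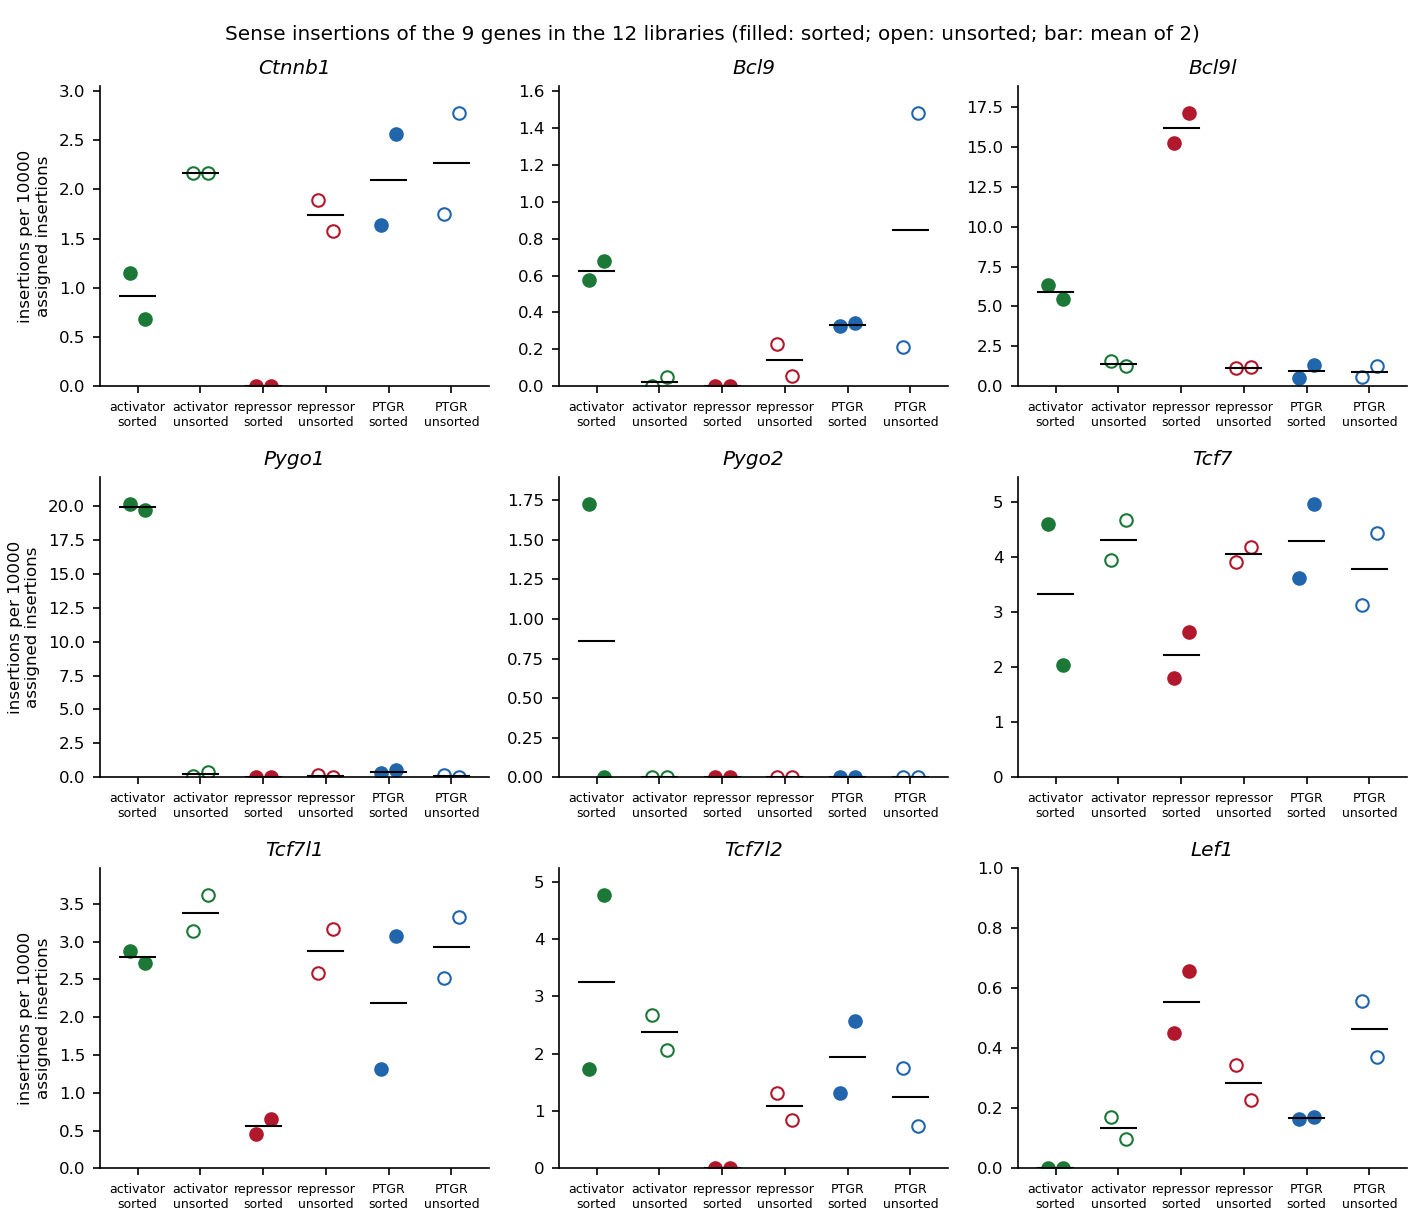
Sense insertions of each of the 9 genes per 10000 assigned insertions (y axis, its own linear scale for each gene, starting at 0) in the 12 libraries, grouped on the x axis by screen and sorting. Filled points are sorted libraries, open points unsorted libraries and bars the mean of 2. For Pygo1 both activator sorted libraries lie at 19.7 and 20.1, and for Bcl9l both repressor sorted libraries at 15.3 and 17.1, above every other library of the gene.

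Pygo1 (mm10 chr9:72925645-72952181, plus strand) encodes a Pygopus protein of 417 codons, with an N-terminal homology domain known to be needed for activation and a PHD finger near the C terminus. The activator sorted libraries held 35 and 29 Pygo1 insertions, and the unsorted libraries of that screen 2 and 8. The repressor sorted libraries held 0 and 0 against 3 and 1 unsorted, and the PTGR sorted libraries 2 and 3 against 4 and 0 unsorted. Per 10000 assigned insertions, Pygo1 stood at 19.9 ± 0.281 (SD, n = 2) in activator sorted cells and at 0.250 ± 0.192 (SD, n = 2) in the unsorted cells of the screen. The activator sorted libraries stood at 19.7 and 20.1, far above the 10 others, the highest of which reached 0.512.

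In the activator screen 0.565 Pygo1 insertions were expected from the background, and the 64 found gave a log2 odds ratio of 6.83 ± 0.38 (SE; exact 95% interval 6.05 to 7.67; Fisher's exact test, adjusted p = 2.07e-78). This placed Pygo1 6th of 132 hits by odds ratio and 45th by sorted insertions. The PTGR screen gave 5 insertions against 2.11 expected (log2 odds ratio 1.25 ± 0.73, SE; Fisher's exact test, adjusted p = 0.535), which was no hit. The repressor sorted cells held 0 against 0.660 expected, so a lower share could not have been detected at this depth.

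Pygo2 (mm10 chr3:89430214-89435128, plus strand), the other Pygopus gene, encodes 405 codons over less than 5 kb. It had 3 sense insertions in the whole series, all in activator sorted replicate 1, at positions 89429735 and 89429949 upstream of the gene and 89430999 in an intron, between 127 and 1391 bp from exon 2. The activator sorted replicate 2 and the 10 other libraries held 0. The 3 insertions passed the Fisher test with an adjusted p of 0.000608, and the exact 95% interval of the odds ratio began at 13.2-fold. The call rests on 1 library and on the depth of the background: 3 is also the minimum for testing, without activator sorted replicate 1 there is none, and the adjusted p was 0.00939 against the unsorted libraries of the activator screen alone. Leaving out 1 unsorted library also ended the call for 5 of the 6, with adjusted p of 0.00105 without either activator unsorted replicate 1 or repressor unsorted replicate 1, 0.00106 without repressor unsorted replicate 2, 0.00119 without activator unsorted replicate 2 and 0.00129 without PTGR unsorted replicate 1. The counts of 0 in repressor sorted and PTGR sorted cells allow up to 0.801 and 0.251 per 10000 there.

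Bcl9l (mm10 chr9:44482825-44511896, plus strand) encodes an adaptor of 1494 codons that binds the PHD finger of Pygopus through one conserved domain and β-catenin through another. The activator sorted libraries held 11 and 8 Bcl9l insertions against 28 and 26 unsorted. In the repressor screen the sorted libraries held 34 and 26 against 20 and 21 unsorted, and in the PTGR screen 3 and 8 against 13 and 7. Per 10000 assigned insertions the level was 16.2 ± 1.29 (SD, n = 2) in repressor sorted, 5.88 ± 0.624 in activator sorted, 1.42 ± 0.243 in activator unsorted, 1.17 ± 0.0277 in repressor unsorted, 0.929 ± 0.618 in PTGR sorted and 0.925 ± 0.522 in PTGR unsorted cells. The repressor and activator sorted libraries did not overlap with each other or with any other library, and the 8 libraries of the 4 lower groups lay between 0.492 and 1.60.

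The 60 repressor insertions of Bcl9l stood against 4.22 expected, a log2 odds ratio of 3.83 ± 0.23 (SE; exact 95% interval 3.36 to 4.30; Fisher's exact test, adjusted p = 1.87e-40). The 19 activator insertions stood against 3.61 expected, a log2 odds ratio of 2.40 ± 0.36 (SE; exact 95% interval 1.61 to 3.10; Fisher's exact test, adjusted p = 8.26e-07). Without activator sorted replicate 1 the activator value was 2.27 with an adjusted p of 0.00288, no longer a hit. By odds ratio Bcl9l came 116th of 192 repressor hits and 120th of 132 activator hits. In the PTGR screen 11 insertions stood against 13.4 expected (log2 odds ratio −0.29 ± 0.46, SE).

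Some genes were hits in both directions. Of 1384 genes tested in both the activator and the repressor screen, 6 were hits in each: Bcl9l, Foxo4, Gon4l, Maml1, Tada3 and Zmiz1. They made up 4.5% of all activator hits, where 8.18% of all genes tested were repressor hits. Of all repressor hits they made up 3.1%, where 4.64% of all genes tested were activator hits. These shares include hits not tested in the other screen, and the overlap was not tested. Maml1, a coactivator of Notch signalling, had log2 odds ratios of 5.09 and 5.62 in the activator and repressor screens, and Gon4l 3.84 and 3.68. Foxo4, a forkhead factor, had 4.44 and 1.73, so its activator value was the higher one, while for Bcl9l and for Zmiz1 (1.33 and 2.88) the repressor value was. Tada3, a subunit of the SAGA and ATAC acetyltransferase complexes, had 1.74 and 1.87. The Bcl9l insertions of the screens lay almost wholly at different positions: activator and repressor sorted cells had 1 position in common, or 2 within 5 bp. Without positions also sorted in another screen Bcl9l kept 18 activator insertions (log2 odds ratio 2.33) and 58 repressor insertions (3.81).

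Bcl9 (mm10 chr3:97203662-97297917, minus strand) encodes the paralogous adaptor, of 1425 codons. The activator sorted libraries held 1 and 1 insertions against 0 and 1 unsorted, the repressor sorted 0 and 0 against 4 and 1, and the PTGR sorted 2 and 2 against 5 and 8. It was tested in the PTGR screen alone (4 against 2.22 expected, log2 odds ratio 0.85 ± 0.79, SE; Fisher's exact test, adjusted p = 0.730), since it had fewer than 3 insertions in the other two. Without PTGR unsorted replicate 2, which held 8 of the 19 background insertions, the value was 1.56 (Fisher's exact test, adjusted p = 0.494). With 0.597 and fewer than 1 expected there, these data set no narrow bound on Bcl9 in the TetR screens.

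Ctnnb1 (mm10 chr9:120929216-120960507, plus strand) encodes β-catenin, of 781 codons, whose armadillo repeats bind TCF/LEF proteins and whose ends carry transactivating regions. The activator sorted libraries held 2 and 1 insertions against 38 and 45 unsorted, the repressor sorted 0 and 0 against 33 and 28, and the PTGR sorted 10 and 15 against 41 and 15. The activator count of 3 stood against 6.28 expected (log2 odds ratio −1.07 ± 0.84, SE; exact 95% interval −3.36 to 0.50). Repressor sorted cells had 0 against 7.33 expected, and the upper end of the exact 95% interval was −0.98. In the PTGR screen 25 stood against 23.4 (log2 odds ratio 0.10 ± 0.31, SE). Per 10000, Ctnnb1 was lower in the sorted than in the unsorted libraries of both TetR screens and overlapped in the PTGR screen, at 2.10 ± 0.652 sorted and 2.26 ± 0.721 unsorted (SD, n = 2 each).

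Tcf7 (mm10 chr11:52252371-52283014, minus strand), Tcf7l1 (chr6:72626378-72789254, minus strand), Tcf7l2 (chr19:55741820-55933654, plus strand) and Lef1 (chr3:131110471-131224356, plus strand) encode the DNA-binding TCF/LEF proteins. Tcf7 had 8 and 3 activator sorted insertions against 69 and 97 unsorted, 4 and 4 repressor sorted against 68 and 74, and 22 and 29 PTGR sorted against 73 and 24. Tcf7l1 had 5 and 4 activator sorted against 55 and 75, 1 and 1 repressor sorted against 45 and 56, and 8 and 18 PTGR sorted against 59 and 18. Tcf7l2 had 3 and 7 activator sorted against 47 and 43, 0 and 0 repressor sorted against 23 and 15, and 8 and 15 PTGR sorted against 41 and 4. None of these 3 genes had the raised sorted levels of Pygo1 or Bcl9l. Lef1 had 0 and 0 activator sorted insertions against 3 and 2 unsorted, 1 and 1 repressor sorted against 6 and 4, and 1 and 1 PTGR sorted against 13 and 2.

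In the activator screen the log2 odds ratios were 0.88 ± 0.47 (SE) for Tcf7l2, −0.10 ± 0.49 for Tcf7l1 and −0.21 ± 0.44 for Tcf7, with 10, 9 and 11 insertions against 5.43, 9.67 and 12.7 expected. Tcf7l2 came nearest to the threshold (Fisher's exact test, p = 0.0547, adjusted p = 0.548). Its excess came from activator sorted replicate 2, without which the log2 odds ratio was 0.03. With the insertions at hits left out of both depths, the values were 1.47 for Tcf7l2, 0.48 for Tcf7l1, 0.38 for Tcf7 and −0.48 for Ctnnb1, so that Tcf7l1 and Tcf7 changed sign. Lef1, with 0, was limited to 0.935 per 10000 sorted insertions.

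In the repressor screen Tcf7l1 had 2 insertions against 11.3 expected (log2 odds ratio −2.50, exact 95% interval −5.55 to −0.63), and Tcf7l2 0 against 6.34, with an upper end of −0.77. Tcf7 had 8 against 14.8 (log2 odds ratio −0.89 ± 0.52, SE). Both Tcf7l1 insertions lay at the same position, 1 in each replicate. Both Lef1 insertions also lay at a single shared position, 148341 bp from the acceptor. The hits of the repressor screen took 54.8% of its sorted insertions, which is more than the 34.2% of the activator screen or the 5.07% of the PTGR screen, and which lowers the share left for every other gene. Left out of both depths, they leave 3.41 Ctnnb1 insertions expected and an upper end of the interval of 0.12. This step gave −1.40 with an upper end of 0.47 for Tcf7l1, an upper end of 0.34 for Tcf7l2, and a change of sign to 0.21 for Tcf7. Against that depth none of these low counts was below the background by more than its interval.

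In the activator screen 3 of 7 members tested were hits, where 4.64% of the 2842 genes tested were. The other 2 of the 9 had fewer than 3 sorted insertions, and Pygo2 was tested only through the 3 insertions that made it a hit. Bcl9l was 1 repressor hit of 2 tested, against 8.18% of 2346, with 7 of the 9 below the minimum. Being tested thus depended on the same sorted counts as the calls, so these shares are no test of the 9 genes. The PTGR count was 0 of 7 tested, against 0.666% of 9303, with 0 at an unadjusted p below 0.05. The median log2 odds ratio was 0.39 over the 6 tested genes with a finite value in the activator screen, against −0.14 over all genes tested, and 0.11 against 0.14 in the PTGR screen. With so few genes these shares describe the 9 genes and set apart Pygo1 and Bcl9l, not the complex as a whole.

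**Figure D2:**
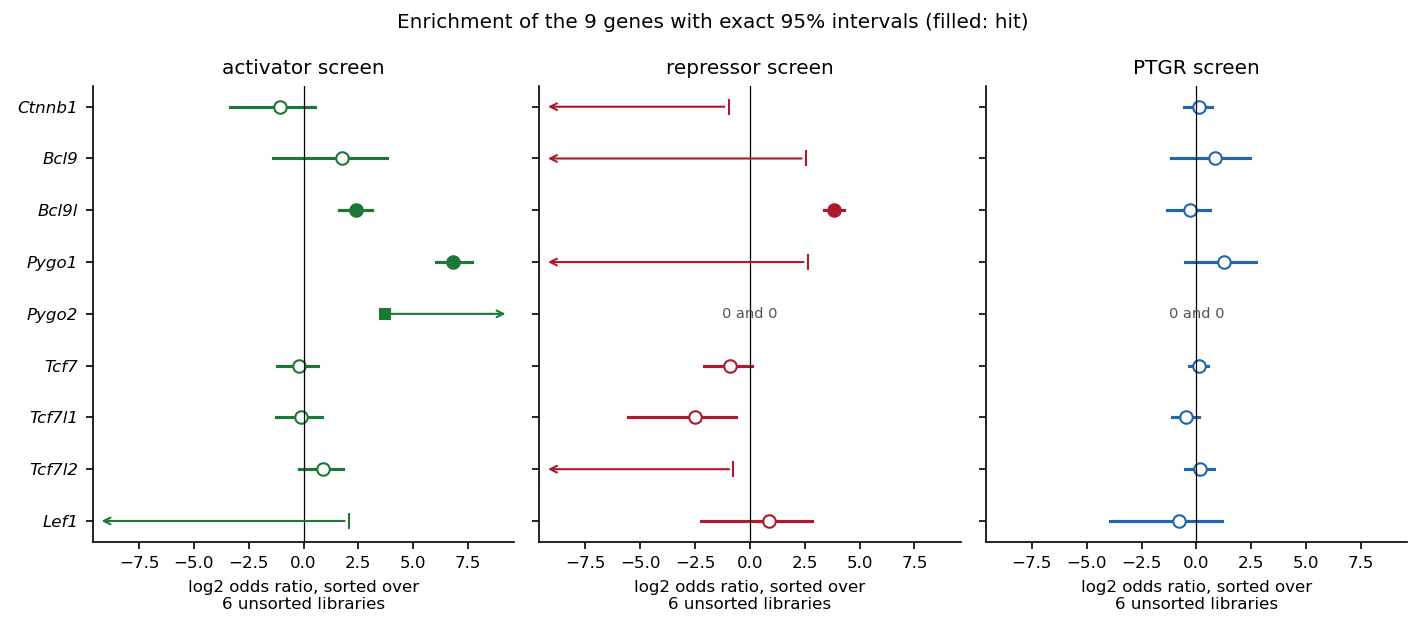
The log2 odds ratio of sorted against the 6 unsorted libraries (x axis) for the 9 genes (y axis) in the 3 screens, with exact 95% intervals and hits filled. An arrow runs from the finite end of an interval where the sorted or background count was 0, and "0 and 0" marks Pygo2 where both were. Pygo1 at 6.83 and Bcl9l at 2.40 lie to the right in the activator panel, Bcl9l at 3.83 in the repressor panel, and the PTGR intervals drawn all include 0.

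A further test set the sorted libraries of a screen against its own 2 unsorted libraries, with the spread between libraries in the model (edgeR quasi-likelihood test, called at an adjusted p below 0.05 and a log2 fold change of at least 1). Pygo1 rose in activator sorted cells by a log2 fold change of 6.55 ± 0.41 (SE; edgeR, adjusted p = 1.84e-53) and Bcl9l by 2.41 ± 0.50 (edgeR, adjusted p = 5.79e-05), 2 of the 6 genes kept by the filter, against 4.00% of 2998. Without activator unsorted replicate 2 the Bcl9l value was 2.24 and the call was lost (edgeR, adjusted p = 0.101). In repressor sorted cells Bcl9l rose by 4.57 ± 0.35 (edgeR, adjusted p = 6.26e-38), 1 of 4 genes kept, against 7.20% of 2779. Ctnnb1, with 0 sorted insertions there, was lower at an unadjusted p of 0.0133 (edgeR, adjusted p = 0.119), which did not pass. Neither Tcf7l1 nor Tcf7 had an unadjusted p below 0.05 in this edgeR test. In the PTGR screen 0 of 4 genes kept were called, against 2.24% of 1696, with 0 of them at an unadjusted p below 0.05. The filter on low counts removed Pygo2, Bcl9 and Lef1 from each of these tests. It also removed Pygo1 and Tcf7l2 from the repressor test, and Pygo1 and Bcl9l from the PTGR test. Pygo1 was thus kept only in the activator test, where its sorted counts were high. Being kept depended on the counts tested, so these shares are no test of the complex. Per the methods, both libraries of a group were biological replicates.

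Whether a gene responded differently in different screens was tested with an interaction term over the 12 libraries, each screen against its own unsorted cells (edgeR, adjusted p below 0.05 in either direction). Bcl9l rose less in the activator than in the repressor screen, by a log2 difference of −2.19 ± 0.54 (SE; edgeR, adjusted p = 0.00225), and Pygo1 rose more (edgeR, adjusted p = 0.0203), where 8.21% of 2569 genes differed. Because Pygo1 had 0 insertions in both repressor sorted libraries, its fitted difference is no bound and is not given. Between the activator and PTGR screens Pygo1 differed by 4.95 ± 1.44 (edgeR, adjusted p = 0.0265) and Bcl9l by 1.96 ± 0.73 (edgeR, adjusted p = 0.177), where 3.93% of genes differed. The Pygo1 differences rest on few counts in the other screens, and the filter kept the gene here through its activator sorted libraries. The difference from the PTGR screen was 1.54 (edgeR, adjusted p = 0.988) without PTGR unsorted replicate 1. The difference from the repressor screen had an adjusted p of 0.338 by edgeR without repressor unsorted replicate 1. Between the repressor and PTGR screens Bcl9l differed by 4.15 ± 0.68 (edgeR, adjusted p = 1.45e-06), where 6.46% of genes did, while Pygo1 did not pass (edgeR, adjusted p = 0.706).

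The orientation of the insertions is given as a description, since the tag can be spliced only to a gene on the same strand. The shares contain the sense insertions by which the genes were called, so they are no separate support for the calls. Of the Pygo1 insertions in activator sorted cells, 64 of 64 ran with the gene (100%, 95% Wilson interval 94.3 to 100), against 18 of 48 in the background (37.5%, 25.2 to 51.6). For Bcl9l the share was 60 of 62 in repressor sorted cells (96.8%, 89.0 to 99.1) and 19 of 22 in activator sorted cells (86.4%, 66.7 to 95.3), against 115 of 218 in the background (52.8%, 46.1 to 59.3). The 11 of 22 in PTGR sorted cells did not differ from that share beyond counting error. The 3 Pygo2 insertions all ran with the gene. The background shares of Ctnnb1, 200 of 394 (50.8%), and Tcf7, 405 of 832 (48.7%), lay near an even split.

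**Figure D3:**
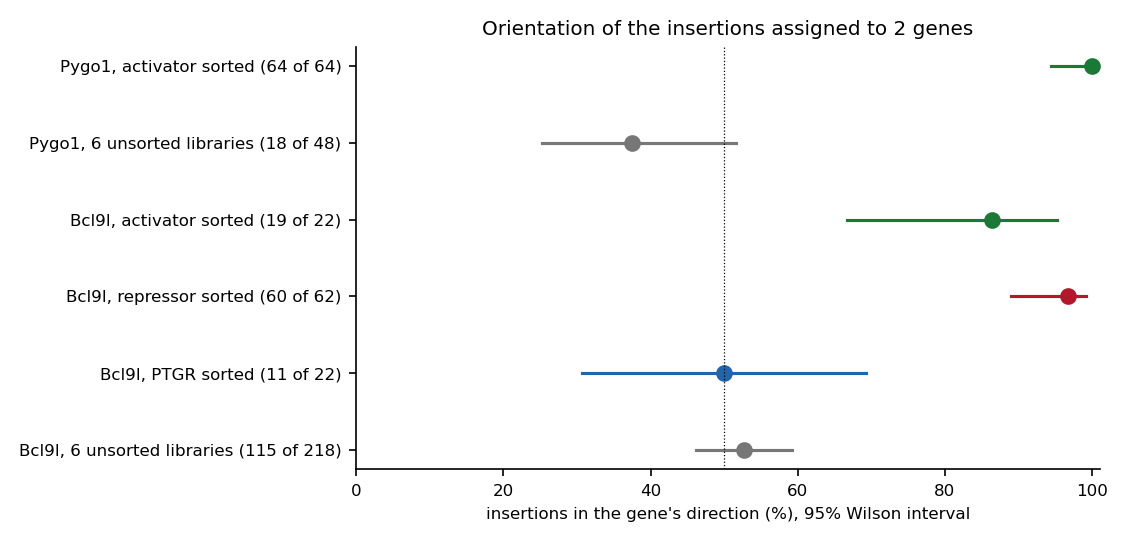
Share of insertions in the direction of the gene (x axis, percent) in sorted cells and in the background, for genes and groups on the y axis, with 95% Wilson intervals and a dotted line at 50%. Pygo1 in activator sorted cells lies at 100% and Bcl9l in repressor sorted cells at 96.8%, while their background lies at 37.5% and 52.8%.

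Counted by the reversed strand, 5, 2 and 6 members were tested in the activator, repressor and PTGR screens, and 0 were hits in each, against 3.14%, 5.61% and 0.500% of all genes tested. Pygo1 and Pygo2 in the activator screen had 0 reversed sorted insertions, and Bcl9l in the repressor screen had 2. All were below the minimum and not tested, so of the calls only that of Bcl9l as an activator had a reversed test. The smallest p was that of Lef1 in the PTGR screen, with 8 reversed insertions (log2 odds ratio 1.35; Fisher's exact test, p = 0.0249, adjusted p = 0.351), and 0 reversed tests of the 9 genes had an unadjusted p below 0.05 in the TetR screens.

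The enriched insertions lay at many positions, some of them shared between replicates. Pygo1 had 62 distinct positions among its 64 activator insertions, with 2 found in both replicates. Bcl9l had 53 distinct positions among 60 in the repressor screen, with 7 in both replicates, and 19 of 19 in the activator screen. Of its 34 positions in repressor sorted replicate 1, 9 lay within 5 bp of a replicate 2 position. Neighbouring positions in a library, such as Pygo1 at 3731 and 3732 bp from the acceptor, were counted separately. Whether shared or neighbouring positions were separate insertion events was not tested, while the tests count each of them. Of the Pygo1 insertions, 49 lay in an intron, 14 upstream of the gene and 1 in an exon, at a median of 5151 bp from the acceptor, against 6148 bp for the 18 background insertions, of which 11 were intronic.

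The Bcl9l medians lay farther from that of the background. In repressor sorted cells 57 of 60 insertions were intronic and the median distance was 2982 bp, and in activator sorted cells 17 of 19 were intronic at a median of 3355 bp. In the background 49 of 115 were intronic, 65 lay upstream (56.5%), and the median was 42741 bp. This median differed between screens. The unsorted cells of the repressor screen had 20 of 41 intronic at a median of 10322 bp, and those of the activator screen 21 of 54 at 56800 bp. The insertions from sorted cells of the TetR screens thus lay mostly close to their acceptor, while the background also held many far upstream. In PTGR sorted cells the median of the 11 insertions was 4579 bp, and they reached from 1471 to 69810 bp. At Ctnnb1, 194 of 200 background insertions lay upstream, at a median of 188326 bp, close to the limit of 200 kb, and a further 178 lay beyond it. At Tcf7 382 of 405 were upstream, at a median of 62712 bp, whereas at Tcf7l1 144 of 308 were, with 162 in introns.

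**Figure D4:**
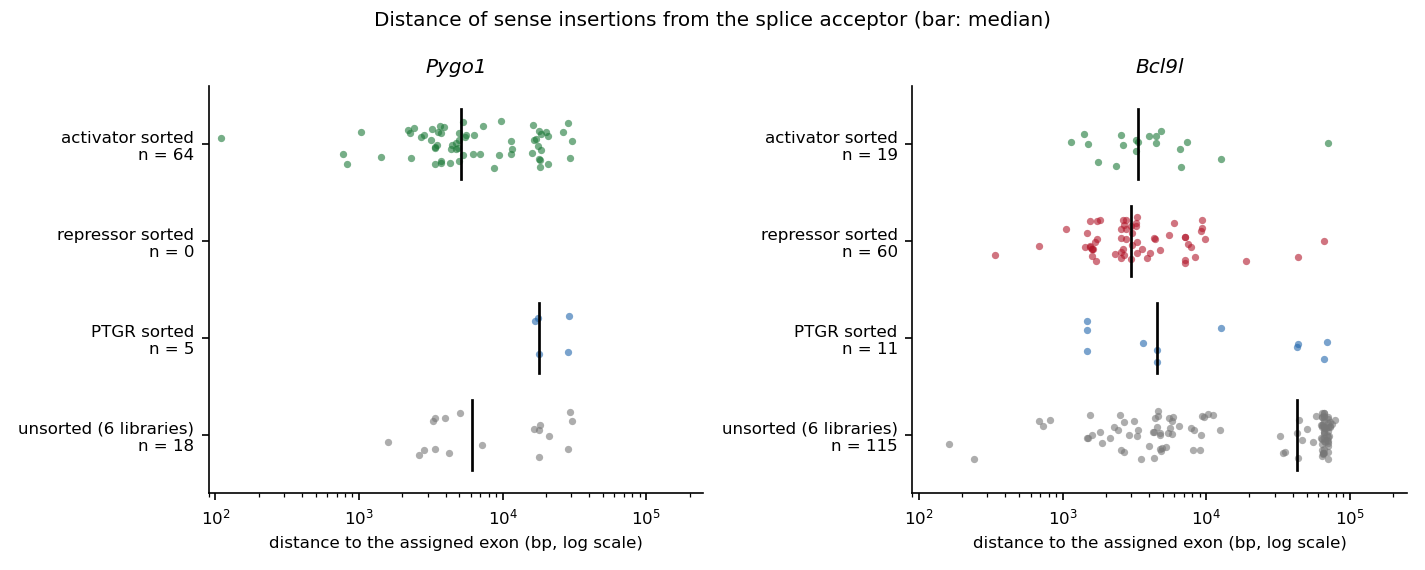
Distance of each sense insertion from its splice acceptor in bp (x axis, log scale) for sorted cells and the background (y axis), with bars at the median. Bcl9l insertions from repressor and activator sorted cells centre on 2982 and 3355 bp against 42741 bp in the background, while Pygo1 insertions centre on 5151 and 6148 bp. The Bcl9l median in the unsorted cells of the repressor screen alone was 10322 bp.

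The distance limit turned directions among values that were not called. With insertions at most 50 kb away, the log2 odds ratio in the activator screen was 0.84 for Tcf7 in place of −0.21 and 0.57 for Ctnnb1 in place of −1.07. In the PTGR screen it was 0.32 for Bcl9l in place of −0.29 and −0.16 for Ctnnb1 in place of 0.10. Both Ctnnb1 values had fewer than 3 sorted insertions within that limit and were not tested, and the others were no hits. For the Bcl9l hits the same limit raised the values to 3.05 in the activator and 4.44 in the repressor screen, and Pygo1 had 6.65.

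Read against the exons, 63 of the 64 activator insertions of Pygo1 were assigned to exon 2, whose acceptor is printed above, and 1 to exon 3. Exon 2 begins after 16.3 codons, so a fusion there keeps 96.1% of the coding sequence, PHD finger included. The Pygo2 acceptor lies after 34.3 codons and keeps 91.5%. All 18 background insertions of Pygo1 were assigned to the same exon 2 as the sorted ones.

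Bcl9l had a pair of main acceptors, whose shares are given as a description without a test. The exon that begins at 44499448 took 47 of 60 repressor sorted and 13 of 19 activator sorted insertions, and 42 of 115 in the background. The exon that begins at 44489655, which lies farther upstream in the gene, took 10 of 60, 5 of 19 and 69 of 115. In PTGR sorted cells they took 4 and 7 of 11, respectively, close to the background shares. Both precede the start codon: 76 and 133 non-coding bases, respectively, come before it, with 0 stop codons in the frame of the start codon, and the whole coding sequence would follow. The acceptor was assigned from distance and was not sequenced.

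The non-coding bases that would be translated between the tag and the protein differed among the genes. At Ctnnb1 exon 2, which took 199 of the 200 background insertions, 48 non-coding bases come before the start codon and hold 1 stop codon in its frame. At Bcl9 exon 2, 479 such bases hold 6. At the Tcf7 exon that begins at 52282778, which took 382 of the 405 background insertions, 96 such bases hold 0. The part of these stop codons in the results was not tested.

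The fusions of Tcf7l1, Tcf7l2 and Lef1 would be shortened at the N terminus, which is the end of TCF/LEF proteins known to bind β-catenin. For Tcf7 the longest complete coding sequence of the annotation has 303 codons. Whether it includes the β-catenin-binding end was not examined. Exon 2 of Tcf7l2 begins after 63 codons and keeps 89.6% of the coding sequence, and exon 2 of Lef1 begins after 69 codons and keeps 82.6%. The background insertions of Tcf7l1 were split between an exon that begins after 81 codons (148 insertions, 86.5% kept) and one after 145 codons (149 insertions, 75.8% kept). Whether this bears on the counts was not tested.

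The genes whose pattern over the 12 libraries was most like that of a called gene were found by Pearson's r of log2 levels, with all libraries sharing the contrast of deep unsorted and shallow sorted cells. Over 4770 genes, Pygo1 was most like Mllt3 (r = 0.967), a component of the super elongation complex, with 79 activator sorted insertions, Setd1b (r = 0.963), a histone H3 lysine methyltransferase, with 477, and Maml2 (r = 0.951), a Notch coactivator, with 133. Bcl9l was most like Smarca4 (r = 0.951), the ATPase of the BAF complex, with 6 activator and 21 repressor sorted insertions, Zmiz1 (r = 0.936) with 31 and 106, and Zfp456 (r = 0.928) with 0 and 14. The likeness of Pygo2 to Rfx7 (r = 0.890), Lrrc63 (r = 0.884) and Skp2 (r = 0.868) rests on the single library with Pygo2 insertions and on the depth of the others. In libraries without Pygo2 insertions its log2 level follows depth alone, through the added 0.5. These correlations describe the libraries and carry no test.

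Around the complex, 7 lists of Wnt pathway genes, outside the 9, held 84 genes, of which 78 were found. Hits made up 7 of the 23 tested for activators, 1 of 19 for repressors and 1 of 45 for PTGR, against 4.64%, 8.18% and 0.666% of all genes tested. Among coactivators that bind β-catenin or its partners, 5 of 7 tested were activator hits, with a list median log2 odds ratio of 3.19 against −0.14 over all genes tested. The other 3 of the 10 genes found had fewer than 3 activator sorted insertions, so this median covers tested genes only. The lists were chosen with earlier results of these data known, so these shares describe the lists and are no test of the pathway. Ep300, an acetyltransferase, had 149 and 240 activator sorted insertions against 39 and 57 unsorted (5.43 ± 0.11, log2 odds ratio ± SE), and its paralogue Crebbp had 17 and 30 against 40 and 37 (3.03 ± 0.24; Fisher's exact test, adjusted p = 2.61e-23). Kmt2d, a histone H3 lysine 4 methyltransferase, had 3 and 16 against 2 and 5 (5.78 ± 0.55), Kmt2a, of the same family, had 5 and 4 against 3 and 5 (3.84 ± 0.58), and Med12, a subunit of the Mediator kinase module, had 2 and 8 against 4 and 8 (3.19 ± 0.52).

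Of the partners of Pygopus and BCL9 in the Wnt enhanceosome, Ldb1, an adaptor for LIM domain proteins, was 1 hit of 2 tested, with 167 and 239 activator sorted insertions against 21 and 70 unsorted (log2 odds ratio 6.19 ± 0.13, SE). The paper flags Ldb1 as also enriched for reversed insertions and advises caution with such hits. Its reversed insertions are not given here. Among corepressors of TCF and inhibitors of β-catenin, Sox17 was 1 activator hit of 4 tested, with 1 and 6 against 2 and 1 (3.89 ± 0.66; Fisher's exact test, adjusted p = 6.60e-05); it is an endoderm factor with an activation domain of its own that also binds β-catenin. Of this list, 0 of 6 tested genes were repressor hits. Smarca4, from the list of coactivators, was the single repressor hit of all 7 lists, with 15 and 6 repressor sorted insertions against 14 and 15 unsorted (3.16 ± 0.36; Fisher's exact test, adjusted p = 2.80e-11). Ep300 was the single PTGR hit, with 107 and 70 against 88 and 14 (2.39 ± 0.14; Fisher's exact test, adjusted p = 4.47e-52).

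The lists upstream of β-catenin held no hit in any of the 3 screens: the destruction complex (2, 2 and 6 genes tested for activators, repressors and PTGR), Wnt receptors and transducers (2, 2 and 6), and Wnt ligands (2, 2 and 7). The list of cadherins and armadillo relatives of β-catenin, which are not upstream of it, held none either (4, 3 and 7). Most genes of these lists had fewer than 3 sorted insertions in the TetR screens and were not tested there. The nearest was Cdh2, N-cadherin, in the activator screen (log2 odds ratio 2.72 ± 0.65, SE; Fisher's exact test, adjusted p = 0.0120).

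**Figure D5:**
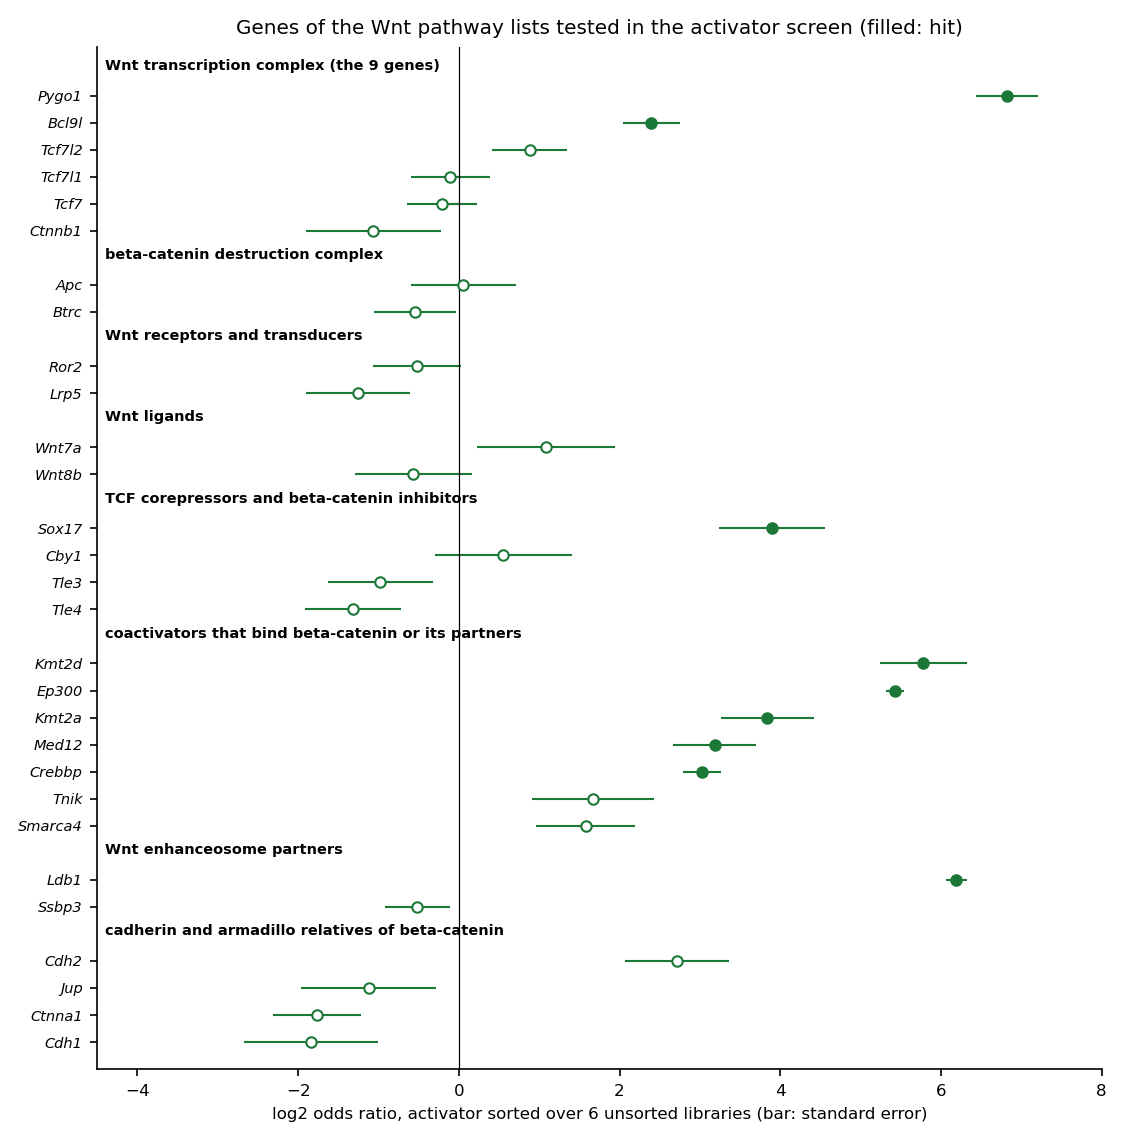
The log2 odds ratio of activator sorted against the 6 unsorted libraries (x axis, bars the standard error) for the tested genes of the 9 and of the 7 pathway lists (y axis), hits filled. Pygo2, with a background of 0, has no finite value and is not drawn. Pygo1 at 6.83 lies beside Ldb1 at 6.19, Kmt2d at 5.78 and Ep300 at 5.43, while Ctnnb1 lies at −1.07. Ldb1 carries the paper's flag for reversed insertions.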

How the data were processed

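Per the labels and methods, the authors trimmed reads with Trim Galore (0.6.0), aligned first mates with Bowtie2 (mm10), filtered the alignments by SAMtools (1.9) for duplicates and mapping quality, and assigned insertions to the nearest downstream exon junction of GENCODE, first exons left out. The deposited files were 24 insertion lists with positions and distances in bp, which gave the counts used here, and 3 tables of pooled counts, log2 odds ratios and p-values by the authors, whose comparison columns were not used. The lists give no reads per insertion, so intervals cover counting error only.

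Each position was counted as 1 insertion per library, which made the counts equal to the deposited pooled counts for all 9 genes in unsorted, activator and repressor libraries, and for 5 of 9 in PTGR sorted libraries, where repeated positions had been counted. The tests were Fisher's exact test (SciPy 1.17.1; minimum 3 sorted insertions), edgeR 4.0.16 in R 4.3.3, and DESeq2 1.42.0 as an alternative. The Fisher test and the edgeR test within a screen were tried on simulated data, while DESeq2 and the edgeR interaction were not. Exons and sequences came from the annotation and genome of mm10. Likeness used log2 of (insertions plus 0.5) per 10000, among genes with at least 10 sorted insertions. The text names the 9 genes, the 3 genes most like each activator hit among them, and the pathway list genes that were hits. Cdh2 and the other genes that were hits in both TetR screens were named after their values were seen. Alternatives covered the background, distance, minimum, counting of positions, filter, tool and each library left out. The members and lists were chosen with earlier results of these data known.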

Additional observations from a re-analysis of the deposited data

Results flagged for a closer look

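The level of Bcl9 in PTGR unsorted replicate 2, 1.48 insertions per 10000 (8 insertions), stood apart from the 5 other unsorted libraries, the next of which held 0.230 per 10000. Its gap made up 0.845 of the range, above the 95% critical value of Dixon's test for 6 samples. Without this library the log2 odds ratio of Bcl9 in the PTGR screen was 1.56 in place of 0.85, and was not a hit in either case. Of 8 genes examined in this way it was the single one, and chance marks about 1 in 20 such groups.

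The response to sorting differed between screens for Bcl9l between the activator and repressor screens (edgeR interaction, adjusted p = 0.00225) and between the repressor and PTGR screens (edgeR interaction, adjusted p = 1.45e-06). For Pygo1 it differed between the activator and repressor screens (edgeR interaction, adjusted p = 0.0203) and between the activator and PTGR screens (edgeR interaction, adjusted p = 0.0265). Both Bcl9l differences passed under all 14 alternatives run for each, and the Pygo1 differences in 10 and 8 of 14.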

How the results depend on the processing

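The activator call of Pygo1 (log2 odds ratio 6.26 to 7.35) and the repressor call of Bcl9l (3.63 to 4.44) kept their direction and their side of the threshold under all 16 alternatives run for each, and the activator call of Bcl9l (2.07 to 3.05) under 15 of 16. Leaving out 1 library at a time gave 1 to 3 members called in the activator screen, 1 to 2 by edgeR in the activator screen, 1 to 2 for the difference between the activator and repressor screens and 0 to 1 for that between the activator and PTGR screens. Without the filter on low counts these differences gave 1 and 0 genes. With a replicate block in the edgeR fit, the difference of Pygo1 between the activator and PTGR screens was lost (adjusted p = 0.0553, 0 genes called), and the block changed no other call. The numbers pair only 2 libraries a group, and the labels do not say that they mark a shared batch.

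Among genes that were not hits, directions turned as follows, and the cause was not tested. In the activator screen these were Tcf7 and Ctnnb1 at 50 kb (0.84 and 0.57), Tcf7 and Tcf7l1 with hits left out of the depth (0.38 and 0.48), Tcf7 and Tcf7l1 with DESeq2 (−0.17 and −0.095) and without the filter (−0.62 and −0.56). In the PTGR screen they were Bcl9 (−0.43) and Bcl9l (0.41) against its own unsorted cells, Bcl9l and Ctnnb1 at 50 kb (0.32 and −0.16), Ctnnb1, Tcf7 and Tcf7l2 with positions within 5 bp taken as 1 (−0.18, −0.012 and −0.22), and Ctnnb1 by edgeR without the filter (−0.091). In the repressor screen it was Tcf7 with hits left out of the depth (0.21). Leaving out 1 library turned the sign of the log2 odds ratio within these ranges: Tcf7 in the activator screen −0.96 to 0.21, and in the PTGR screen Bcl9l −1.19 to 0.28, Tcf7l1 −1.20 to 0.029, Ctnnb1 −0.25 to 0.39, Tcf7 −0.14 to 0.32 and Tcf7l2 −0.37 to 0.60. The edgeR log2 fold changes did so for Tcf7 (−0.46 to 0.33), Tcf7l1 (−0.017 to 0.31) and Tcf7l2 (−0.21 to 1.64) in the activator screen, Tcf7 in the repressor screen (−0.24 to 0.043), and Tcf7l1 (−0.90 to 0.21) and Ctnnb1 (−0.28 to 0.38) in the PTGR screen. Leaving out positions sorted in another screen, and leaving hits out of the depth, were chosen after seeing the data. Depth limits Pygo1, Bcl9, Lef1 and Pygo2 most in showing a loss, with fewer than 1 insertion expected in activator sorted cells.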
